A study of Mus musculus with 12 samples.

Results

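The genes described here are the mitosis and spindle genes: cyclins and kinases of mitotic entry, the spindle checkpoint, the kinetochore, the chromosomal passenger complex, spindle kinesins, cytokinesis factors, condensin and 2 further genes of mitotic chromosomes. Of 46 listed symbols, 45 had a row annotated to that symbol alone, 1 row each, among 65956 transcript clusters and 30142 named genes. Ccnb1 had no such row and was not analysed here. The genes were listed by symbol. The rule would take the brightest row of a gene with several, a case that did not arise.

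During a cell cycle these genes are switched on late, from G2 into mitosis, and they are switched off when cells leave the cycle. In resting cells the MuvB core with a pocket protein (the DREAM complex) holds many of them off through a promoter element called the CHR, and in cycling cells MuvB works with B-MYB and FOXM1 to turn them on. Neutrophils are short-lived granulocytes that stop dividing as they mature from promyelocytes and myelocytes.

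Gene expression was measured on 12 arrays in 6 groups of 2. All cells came from bone marrow of mice with a C57BL/6 background and carried HOXB8 fused to the hormone-binding domain of the estrogen receptor (HoxB8-ER), which keeps them as dividing, immortal myeloid progenitors while 0.5 µM estradiol is present. They become neutrophils within 6 days of its removal. The groups were neutrophils labelled Ezh2-/- (written Ezh2-null), wild-type (WT) neutrophils, Ezh2-null undifferentiated cells, WT undifferentiated cells, WT neutrophils given GSK343, and WT neutrophils given vehicle. EZH2 is the histone methyltransferase of Polycomb repressive complex 2, and GSK343 inhibits it. Its dose is unsettled, being 0.5 µM (for 9 days) in the sample labels but 1 µM in the description of the series. The Ezh2-null and WT cells came from littermates. The number of lines made from each genotype is not stated, so genotype and cell line cannot be told apart. Nor is it stated that the 2 arrays of a group were separate cultures, so p-values measure the spread between arrays, which may be technical.

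Ezh2 itself was compared first, as a check of the labels. It stood at 9.10 and 9.44 (log2 signal) in Ezh2-null undifferentiated cells, against 11.57 and 11.65 in WT undifferentiated cells, a difference of -2.34 (SE 0.155, adjusted p = 5.5e-05). In neutrophils it stood at 8.74 and 9.02 on the arrays labelled Ezh2-null, against 8.31 and 8.34 on the WT arrays (0.55, SE 0.155, adjusted p = 0.0501). In neutrophils the transcript was thus not lower on the labelled-null arrays, so it did not settle the label there. From undifferentiated cells to neutrophils it changed by -3.28 in WT cells (SE 0.155, adjusted p = 1.23e-06). In the Ezh2-null line it changed by -0.39 (SE 0.155, adjusted p = 0.113). Which exons the null allele lacks is not stated. The wording neutrophils labelled Ezh2-null is therefore kept. Each comparison that uses them, or the WT neutrophils of the genotype arrays, depends on that label in direction or size, WT differentiation included.

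Within several groups the replicate arrays differed in the level of these genes. On the Ezh2-null undifferentiated arrays all 45 genes were higher on array 1 than on array 2, by a median of 1.10 log2 units, while the median gap over all clusters was 0.01. In WT neutrophils 42 of 45 were higher on array 2 (median array 1 minus array 2 of -0.59), and in neutrophils labelled Ezh2-null all 45 were (-0.32). The median gaps were 0.21 in WT undifferentiated cells, -0.21 with GSK343 and -0.14 with vehicle. As the genes shifted together between arrays of the same group, counts of genes below are not counts of separate observations. The median cluster had a signal of 4.54 to 4.65 on the 8 arrays of the genotype groups and of 3.88 to 3.96 on the 4 arrays of the drug groups, so levels are compared within each of these sets. Array background, set at the 95th percentile over the 23 antigenomic controls, lay between 4.83 and 5.79. All 45 genes lay above it on every array except Birc5, which was above it on 1 of 2 WT neutrophil arrays. The median of the 5222 negative controls, between 5.19 and 6.60, was a higher mark on most arrays. In WT neutrophils 38 of the 45 lay above that median on both arrays. In Ezh2-null undifferentiated cells 43 did, as with vehicle, and in each other group all 45. Defining markers of neutrophils, such as Ltf, Ngp, S100a8 and Ly6g, were above background on all 8 neutrophil arrays.

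**Figure D1:**
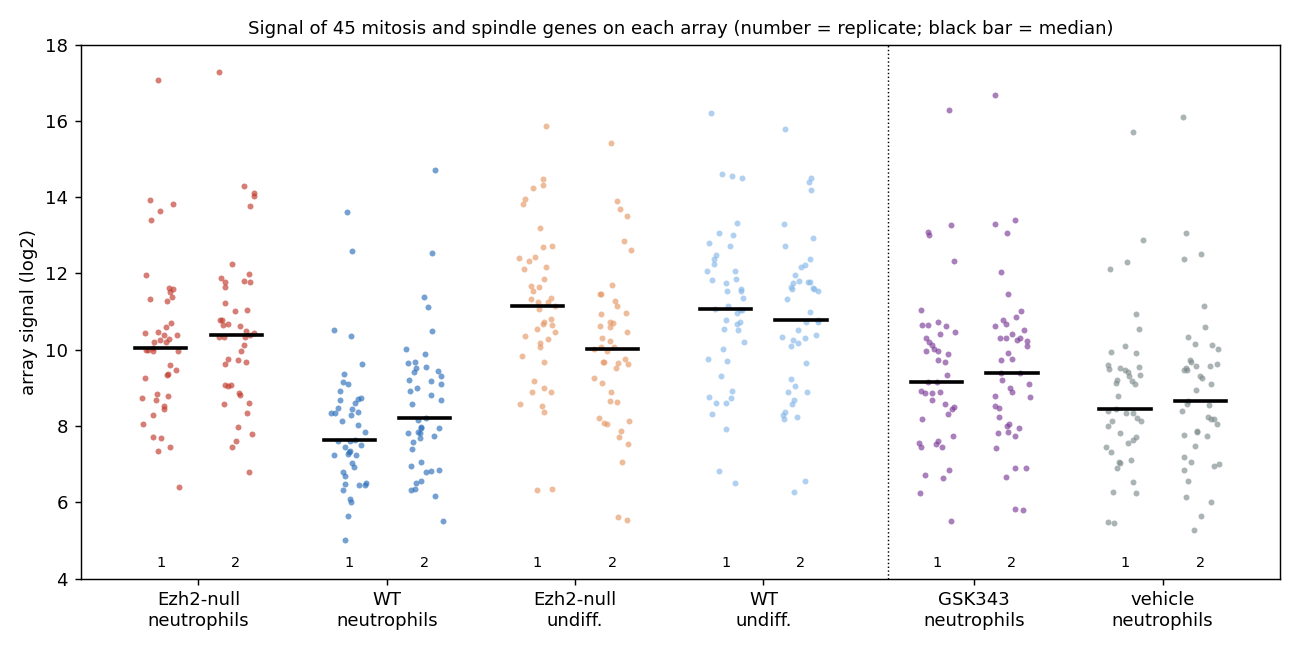
Log2 array signal of the 45 mitosis and spindle genes on each of the 12 arrays (1 point per gene, black bar = median over the genes, numbers = replicates); the dotted line parts the genotype arrays from the drug arrays. Medians were 10.04 and 10.38 in neutrophils labelled Ezh2-null, 7.63 and 8.21 in WT neutrophils, 11.14 and 10.02 in Ezh2-null undifferentiated cells, 11.06 and 10.79 in WT undifferentiated cells, 9.16 and 9.40 with GSK343, and 8.45 and 8.66 with vehicle.

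Promoter sequence was examined because the CHR and the CCAAT box bound by NF-Y are the elements through which late cell cycle genes are known to be held off and switched on together. RefSeq (GRCm38.p6) windows of 300 bases, from 250 before to 50 after the start site, were found for 38 of the 45 genes. The CHR letters TTTGAA, searched on both strands, began within 50 bases of the start in 25 of the 38 (65.8%), against 5.72% of the 27025 genes with a window. Here and below a gene with several windows was counted if any of them held the letters. The letters CCAAT, on both strands, were in 27 windows (71.1%), against 41.1% of all genes. Both together were in 22 (57.9%), against 2.39% of all genes. At least 2 CCAAT boxes were in 17 (44.7%, against 13.3%). A CDE-CHR tandem, spelled GCGG, then any 4 bases, then TTTGAA, on either strand and overlapping the CHR letters, was in the windows of Cdk1 and Cenpf (5.26%), against 23 of 27025 genes (0.0851%). An E2F-type site, TTCCCGC on either strand, was in 1 of the 38 (2.63%), against 5.29% of all genes.

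The windows of 7 genes are printed from 130 bases before to 20 bases after the start, on the strand of the gene, with CHR letters, CCAAT letters and the GCGG of a tandem in capitals; letters found on the opposite strand read TTCAAA and ATTGG. Cdk1 and Cenpf are shown for the tandem, and Ccnb2, Cdc20, Top2a and Kif11 as genes of 4 different roles that hold both elements. Pttg1 is shown as a window with neither, and its signal, near the negative controls in WT neutrophils, did not fall in WT differentiation. The windows of Mad2l1, Nuf2, Birc5, Kif18a, Nusap1 and Ncaph hold neither as well, and these genes did fall. Cenpa holds both elements and did not pass the test of that fall.
Cdk1 (chr10:69352893-69353042, minus strand): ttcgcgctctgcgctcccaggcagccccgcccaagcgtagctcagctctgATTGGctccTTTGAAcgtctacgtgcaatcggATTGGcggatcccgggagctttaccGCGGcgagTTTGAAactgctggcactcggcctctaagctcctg
Cenpf (chr1:189688067-189688216, minus strand): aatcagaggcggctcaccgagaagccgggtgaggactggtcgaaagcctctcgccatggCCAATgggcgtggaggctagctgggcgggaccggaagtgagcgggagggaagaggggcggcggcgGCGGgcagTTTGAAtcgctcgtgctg
Ccnb2 (chr9:70421535-70421684, minus strand): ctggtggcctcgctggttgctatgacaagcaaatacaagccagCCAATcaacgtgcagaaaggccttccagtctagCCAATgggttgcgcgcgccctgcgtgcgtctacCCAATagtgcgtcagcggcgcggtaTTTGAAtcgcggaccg
Cdc20 (chr4:118437324-118437473, minus strand): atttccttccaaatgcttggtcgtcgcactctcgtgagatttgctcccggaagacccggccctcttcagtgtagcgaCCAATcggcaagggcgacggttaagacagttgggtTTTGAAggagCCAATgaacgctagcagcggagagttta
Top2a (chr11:99024170-99024319, minus strand): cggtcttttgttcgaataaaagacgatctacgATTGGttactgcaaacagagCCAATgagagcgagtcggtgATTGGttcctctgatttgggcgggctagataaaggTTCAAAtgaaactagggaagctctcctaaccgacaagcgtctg
Kif11 (chr19:37376252-37376401, plus strand): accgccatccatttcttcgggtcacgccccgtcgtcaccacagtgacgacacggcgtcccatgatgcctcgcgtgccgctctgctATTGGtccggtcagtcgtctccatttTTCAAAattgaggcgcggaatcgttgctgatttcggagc
Pttg1 (chr11:43425962-43426111, minus strand): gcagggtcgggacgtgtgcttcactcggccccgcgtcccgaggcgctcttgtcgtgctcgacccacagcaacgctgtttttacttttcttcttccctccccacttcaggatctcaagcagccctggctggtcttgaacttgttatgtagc

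**Figure D2:**
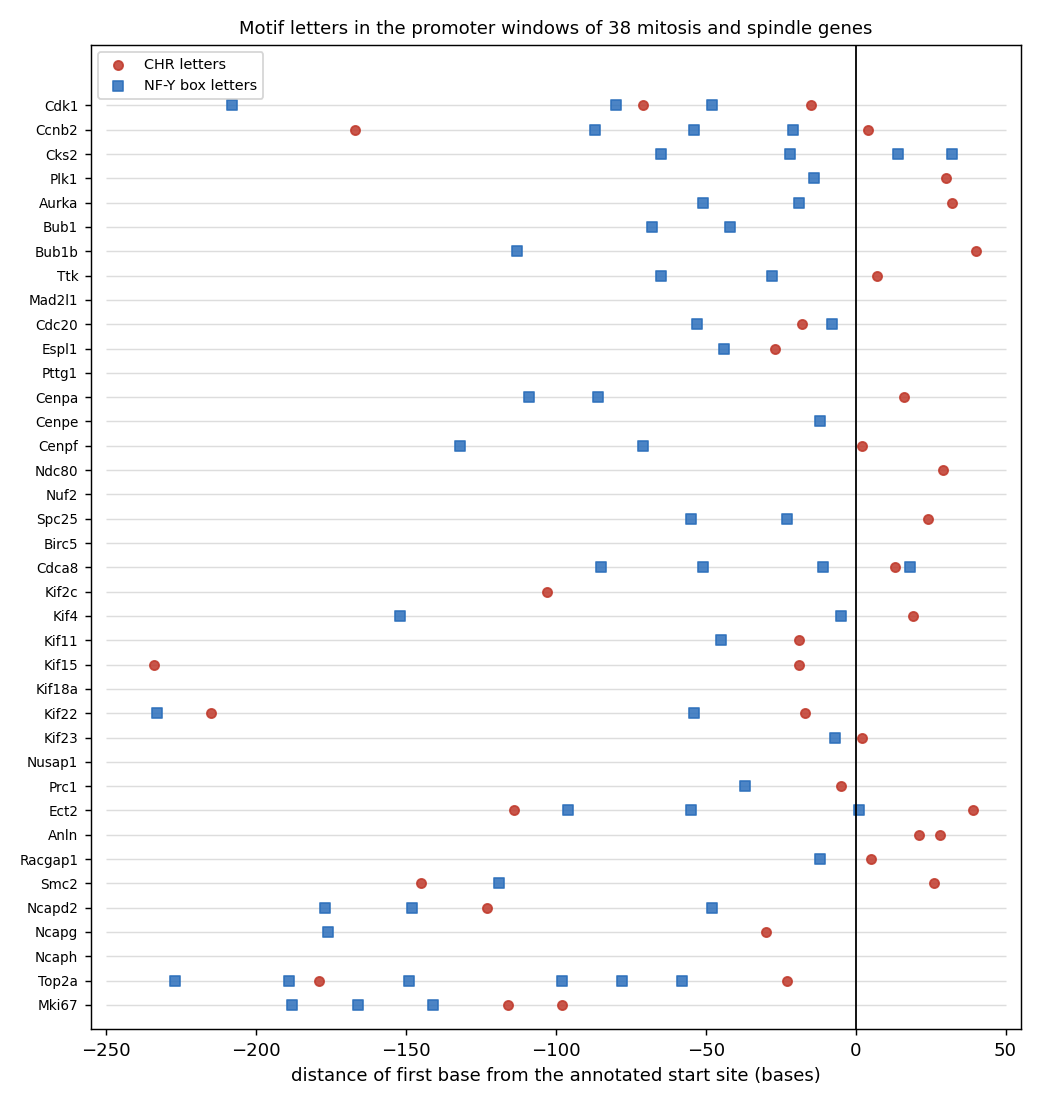
Distance in bases from the annotated start site (vertical line) to the first base of each CHR match (circles) and CCAAT match (squares) in the 300-base windows of 38 mitosis and spindle genes. CHR letters cluster close to the start in 25 of the 38 windows and CCAAT letters lie mostly before it; a row without a mark holds neither.

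The presence of the letters near the start was set beside the sizes of the changes. In WT differentiation the median difference (neutrophils minus undifferentiated cells, log2) was -2.95 over the 25 genes with CHR letters near the start and -2.62 over the 13 with a window but without them. For neutrophils labelled Ezh2-null minus WT neutrophils the medians were 2.22 and 2.10, and for GSK343 minus vehicle 0.68 and 0.60. The ranges overlapped in each case, and no test was made.

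Most mitotic genes were lower in WT neutrophils than in WT undifferentiated cells. In limma's fit across all clusters, 43 of the 45 fell (Benjamini-Hochberg adjusted p under 0.05, here and below the meaning of rose and fell), against a background of 12.2% of all clusters and 33.3% of those above background on all 12 arrays. The median difference was -2.91 log2 units, against 0.03 over all clusters. Each of the 45 was lower on both WT neutrophil arrays than on both WT undifferentiated arrays, as were 26.9% of all clusters and 43.8% of the brighter ones. In bulk RNA of this kind, fewer dividing cells and less mitotic RNA per cell cannot be told apart.

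All 6 measured genes of the mitotic engine fell (median -2.98). Cdk1, the kinase that drives entry into mitosis, stood at 7.23 and 7.82 in WT neutrophils, against 10.97 and 10.79 in WT undifferentiated cells, a difference of -3.36 (SE 0.36, adjusted p = 0.000109). Plk1, the polo-like kinase of centrosomes and kinetochores, stood at 8.60 and 9.88, against 12.71 and 11.77 (-3.00, SE 0.596, adjusted p = 0.00459). Its arrays lay apart by stage, with a wide gap between the replicates of each group. Cks2, a small CDK-binding subunit, fell by 1.32 (SE 0.184).

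Checkpoint and anaphase genes fell in 6 of 7 cases (median -3.30). Cdc20, the activator of the anaphase-promoting complex, stood at 5.65 and 6.34 in WT neutrophils, against 9.75 and 8.90 in WT undifferentiated cells (-3.33, SE 0.447, adjusted p = 0.000438). Bub1, a checkpoint kinase of the kinetochore, stood at 8.28 and 9.18, against 12.26 and 11.79 (-3.30, SE 0.536, adjusted p = 0.00142). Bub1b, which encodes the checkpoint protein BUBR1, fell by 3.88 (SE 0.295). The exception was Pttg1, which encodes securin, the inhibitor of separase. It stood at 6.46 and 6.50 in WT neutrophils, against 6.83 and 6.57 in WT undifferentiated cells (-0.22, SE 0.245, adjusted p = 0.639, 95% interval -0.77 to 0.34), and its groups nearly touched. The negative control medians were 6.37 and 6.60 on the WT neutrophil arrays and 6.08 and 6.00 on the WT undifferentiated arrays. At levels so near them this gene had little room to show a fall.

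At the kinetochore 6 of 7 genes fell (median -2.65). Ndc80, the microtubule-binding subunit of the outer kinetochore, stood at 8.48 and 9.10 in WT neutrophils, against 11.35 and 11.59 in WT undifferentiated cells (-2.68, SE 0.257, adjusted p = 5.63e-05). Cenpa, the histone H3 variant that marks centromeres, did not pass the test, at 7.46 and 7.85 against 8.32 and 8.30 (-0.65, SE 0.249, adjusted p = 0.0944, 95% interval -1.22 to -0.09). All 4 genes of the chromosomal passenger complex, which corrects faulty attachments, fell. Its kinase gene Aurkb stood at 6.46 and 6.86, against 10.53 and 10.11 (-3.66, SE 0.378, adjusted p = 8.75e-05). Birc5, which encodes survivin, stood at 5.00 and 5.51, against 6.50 and 6.28 (-1.13, SE 0.275, adjusted p = 0.0134), with the first WT neutrophil array below background. Without WT neutrophil array 1 (-0.88) or WT undifferentiated array 1 (-1.03), Birc5 no longer passed the test, and with the median of the negative controls as background its neutrophil level has only an upper limit, against which no fall is left. Where 1 array is left out, here and below, the remaining array of its group is assumed to vary like those of the other groups.

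All 10 kinesin and spindle genes fell (median -2.97), as did the 4 cytokinesis and 7 chromosome genes (medians -2.43 and -3.23). Kif11, the plus-end motor that pushes spindle poles apart, stood at 10.37 and 11.13 in WT neutrophils, against 14.56 and 14.40 in WT undifferentiated cells (-3.73, SE 0.297, adjusted p = 1.97e-05). Kif20a, a kinesin of the central spindle, stood at 8.04 and 9.30, against 12.07 and 11.32 (-3.03, SE 0.522, adjusted p = 0.00203). Prc1, which bundles the microtubules of the central spindle, stood at 8.74 and 9.43, against 12.06 and 11.95 (-2.92, SE 0.361, adjusted p = 0.000262). No group overlapped for these 3 genes.

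Among the chromosome genes, the condensin I subunit gene Ncapd2 had the largest fall of all 45. It stood at 8.13 and 8.99 in WT neutrophils, against 13.06 and 12.16 in WT undifferentiated cells, 16.6-fold lower (-4.05, SE 0.395, adjusted p = 6.23e-05). Ncapg, another condensin I subunit, stood at 6.93 and 7.68, against 10.55 and 10.52 (-3.23, SE 0.255, adjusted p = 1.83e-05). Top2a, the topoisomerase that untangles sister chromatids, stood at 10.51 and 11.39, against 14.50 and 14.19 (-3.39, SE 0.332, adjusted p = 6.38e-05). Mki67, which encodes the proliferation marker Ki-67 of the mitotic chromosome surface, changed less, at 13.61 and 14.72 against 16.21 and 15.80 (-1.84, SE 0.343, adjusted p = 0.0032).

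In neutrophils labelled Ezh2-null the same genes were higher than in WT neutrophils. Of the 45, 40 rose and none fell, against a background of 6.75% of all clusters rising and 5.06% falling, and of 16.7% rising and 12.2% falling among those above background on all 12 arrays. The median difference was 2.18 log2 units, against -0.03 over all clusters. Each of the 45 was higher on both arrays labelled Ezh2-null than on both WT arrays, as were 23.6% of all clusters and 37.2% of the brighter ones. The number that rose was 26 without WT neutrophil array 1 (median 1.82) and 23 without labelled-null array 2 (median 2.02).

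The 6 engine genes all rose (median 2.84), and Ccna2, which encodes cyclin A2 of S phase and early mitosis, had the largest difference of all. It stood at 13.40 and 13.76 in neutrophils labelled Ezh2-null, against 9.36 and 10.49 in WT neutrophils, 12.6-fold higher (3.66, SE 0.401, adjusted p = 0.000462). Cdk1 stood at 9.26 and 9.68, against 7.23 and 7.82 (1.94, SE 0.36, adjusted p = 0.00754). Plk1 stood at 11.95 and 12.26, against 8.60 and 9.88 (2.87, SE 0.596, adjusted p = 0.0131). The labelled-null arrays lay clear of the WT arrays for each of the 3, although Cdk1 and Plk1 lost the call without WT neutrophil array 1 (1.64 and 2.22) or labelled-null array 2 (1.73 and 2.71). Ccnb2, a B-type mitotic cyclin, rose 7.02-fold, and Aurka, the kinase of spindle poles, 7.72-fold.

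Checkpoint and anaphase genes rose in 6 of 7 cases (median 1.72). Cdc20 stood at 8.83 and 9.05 in neutrophils labelled Ezh2-null, against 5.65 and 6.34 in WT neutrophils (2.95, SE 0.447, adjusted p = 0.00267). Bub1 stood at 10.26 and 10.64, against 8.28 and 9.18, and did not pass the test (1.72, SE 0.536, adjusted p = 0.0759), its WT arrays standing well apart from each other. Pttg1 stood at 7.34 and 7.45, against 6.46 and 6.50 (0.91, SE 0.245, adjusted p = 0.0422). Those WT levels lay near the negative control medians of the same arrays, 6.37 and 6.60. Securin thus rose here although it had not fallen in WT differentiation, but leaving out any 1 of the 4 arrays compared ended its call (0.86 to 0.97). In all, 15 of 20 alternative settings ended it.

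Kinetochore genes rose in 6 of 7 cases (median 1.70), with Spc25, a subunit of the NDC80 complex, the exception (1.01, adjusted p = 0.135). Ndc80 stood at 10.04 and 10.33 in neutrophils labelled Ezh2-null, against 8.48 and 9.10 in WT neutrophils (1.40, SE 0.257, adjusted p = 0.00733). Cenpa stood at 8.44 and 8.81, against 7.46 and 7.85 (0.97, SE 0.249, adjusted p = 0.0344). Both sets of arrays lay apart, and both calls ended without WT neutrophil array 1 (1.09 and 0.78) or labelled-null array 2 (1.25 and 0.79). Of 20 alternative settings, 2 ended the call of Ndc80 and 11 that of Cenpa. Cenpe, the kinesin that carries chromosomes to the spindle equator, rose 6.84-fold.

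Of the passenger complex, Aurkb, Birc5 and Cdca8 rose and Incenp, its scaffold, did not pass the test (0.99, adjusted p = 0.0784). Aurkb stood at 8.74 and 9.08 in neutrophils labelled Ezh2-null, against 6.46 and 6.86 in WT neutrophils (2.25, SE 0.378, adjusted p = 0.0046). Birc5 stood at 6.40 and 6.79, against 5.00 and 5.51 (1.34, SE 0.275, adjusted p = 0.012), with 1 of the WT arrays below background. Its call ended without WT neutrophil array 1 (1.09) or labelled-null array 2 (1.15). With the negative control median as background the rise of Birc5 is at least 1.08-fold.

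Spindle kinesins and assembly factors rose in 9 of 10 cases (median 2.25). Kif11 stood at 13.63 and 14.03 in neutrophils labelled Ezh2-null, against 10.37 and 11.13 in WT neutrophils, 8.44-fold higher (3.08, SE 0.297, adjusted p = 0.000227). Kif20a stood at 10.29 and 10.33, against 8.04 and 9.30, and did not pass the test (1.64, SE 0.522, adjusted p = 0.0828). Kif23, the motor of the centralspindlin complex, had the smallest difference of the 45, at 10.44 and 10.77 against 9.63 and 10.02 (0.78, SE 0.213, adjusted p = 0.0458). The 3 motors differ in how far apart their groups lie, widely for Kif11 and less for Kif20a and Kif23. The call of Kif23 ended under 15 of 20 alternative settings. Nusap1, a microtubule-stabilising spindle protein, rose 8.44-fold.

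Of the cytokinesis genes, 3 of 4 rose (median 1.44). Prc1 stood at 11.33 and 11.77 in neutrophils labelled Ezh2-null, against 8.74 and 9.43 in WT neutrophils (2.47, SE 0.361, adjusted p = 0.00222), with no overlap. Racgap1, the partner of Kif23 in centralspindlin, did not pass the test (0.83, adjusted p = 0.187). Ect2, the RhoA activator that centralspindlin recruits, rose by 1.51 log2 units (SE 0.381, adjusted p = 0.0321). This call ended without WT neutrophil array 1 (1.01), labelled-null array 1 (1.59) or labelled-null array 2 (1.43), and in 11 of 20 alternative settings in all.

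All 7 chromosome genes rose (median 2.59). Top2a stood at 13.81 and 14.29 in neutrophils labelled Ezh2-null, against 10.51 and 11.39 in WT neutrophils (3.10, SE 0.332, adjusted p = 0.000413). Mki67 stood at 17.08 and 17.29, against 13.61 and 14.72 (3.02, SE 0.343, adjusted p = 0.000569). Ncapg stood at 9.35 and 9.62, against 6.93 and 7.68 (2.18, SE 0.255, adjusted p = 0.000648). The groups were widely separated for each. Ncapd2 rose 8.78-fold (SE 0.395).

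**Figure D3:**
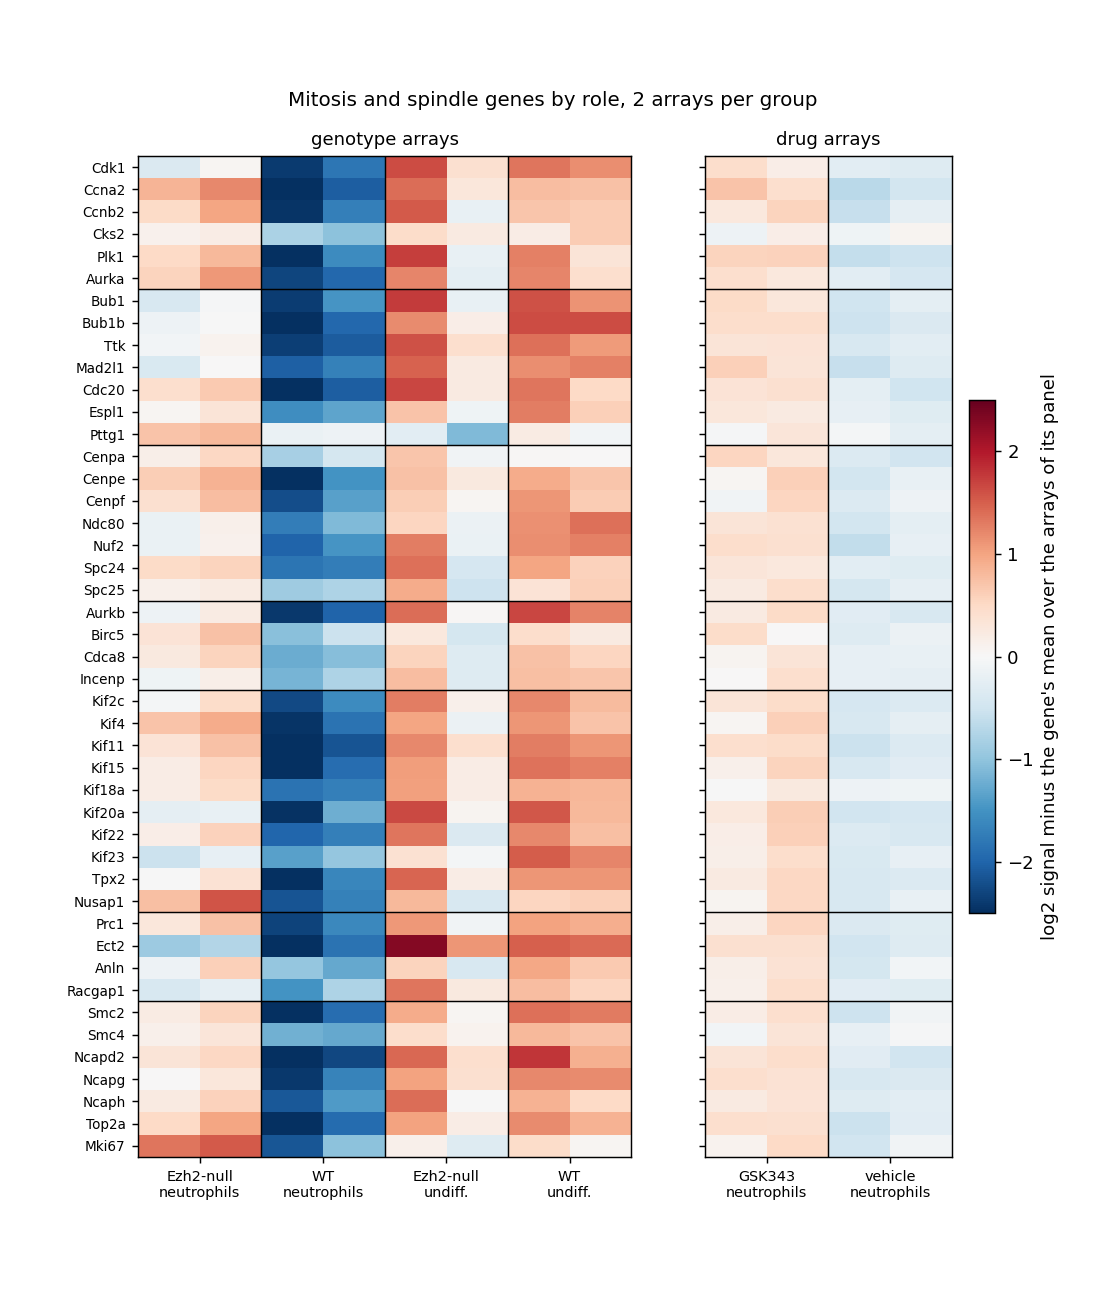
Log2 signal of each of the 45 genes minus its mean over the arrays of its panel (left, 8 genotype arrays; right, 4 drug arrays), with genes ordered by role and 2 arrays per group; red is higher and blue lower. WT neutrophils are the lowest group for nearly every gene, Ezh2-null undifferentiated array 1 is redder than array 2 in every row, and GSK343 columns are redder than vehicle columns for 43 genes.

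The level reached in neutrophils labelled Ezh2-null was set beside that of dividing WT cells. Both labelled-null neutrophil arrays lay above both WT undifferentiated arrays for 5 genes, Ccna2, Pttg1, Cenpa, Nusap1 and Mki67 (30.5% of all clusters and 38.6% of the brighter ones did so). They lay below both for 29 genes (28.7% and 45.1%), and the arrays overlapped for the other 11, among them Plk1, Aurka, Cdc20, Cenpe and Top2a. Mki67 was at 17.08 and 17.29 in neutrophils labelled Ezh2-null, against 16.21 and 15.80 in WT undifferentiated cells. This is a description of levels, since the groups differ in both label and stage.

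Markers of other cells moved with this result. All 13 mast cell and basophil markers rose in neutrophils labelled Ezh2-null (median 5.14), with a summed log2 signal of 19.40 to 19.45, against 12.13 to 13.66 in WT neutrophils, where 8 of the 13 were at background. All 10 measured erythroid markers rose too (median 5.93, summed signal 17.65 to 17.87 against 10.08 to 10.36). In WT neutrophils 8 of those 10 were at background. Of 12 neutrophil markers 5 fell and none rose, with a summed signal of 20.14 to 20.53 against 20.77 to 21.31. Over all clusters 6.75% rose and 5.06% fell. Of 10 progenitor markers 4 rose and 1 fell. Monocyte and macrophage markers fell in 5 of 10 cases, and of 9 lymphoid markers 1 rose, with 8 at background in neutrophils labelled Ezh2-null and 9 in WT neutrophils. In both groups of undifferentiated cells 8 of the 10 erythroid markers were at background, and mast cell markers summed to 18.14 to 18.52 in Ezh2-null and 18.86 to 18.95 in WT undifferentiated cells. Whether such cells were present, and what part they had in the levels of the mitotic genes, was not tested.

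In undifferentiated cells 1 mitotic gene passed the test between the genotypes, and the estimates were wide. Of the 45, none rose and 1 fell, against a background of 1.65% of all clusters rising and 1.34% falling (1.76% and 2.82% of the brighter ones). The median difference (Ezh2-null minus WT) was -0.38 log2 units, against -0.01 over all clusters, and 38 genes lay below 0 and 7 above (47.8% of all clusters and 48.2% of the brighter ones lay above). At an unadjusted p under 0.05, 6 were lower, against 5.92% of all clusters and 10.4% of the brighter ones.

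The gene that fell was Kif23, at 11.36 and 10.93 in Ezh2-null undifferentiated cells, against 12.49 and 12.21 in WT undifferentiated cells (-1.21, SE 0.213, adjusted p = 0.0162). Its arrays did not overlap, but the call ended without WT undifferentiated array 1 (-1.07), WT undifferentiated array 2 (-1.35) or Ezh2-null array 2 (-0.99). Ndc80 stood at 10.74 and 10.07, against 11.35 and 11.59 (-1.07, SE 0.257, adjusted p = 0.0705). Cenpa had the highest difference, at 8.99 and 8.22 against 8.32 and 8.30 (0.30, adjusted p = 0.768), and its groups overlapped.

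The Ezh2-null undifferentiated arrays stood apart from each other. Cdk1 stood at 11.26 and 10.02 on them, against 10.97 and 10.79 in WT undifferentiated cells (-0.24, 95% interval -1.05 to 0.57). Plk1 stood at 13.18 and 11.27, against 12.71 and 11.77 (-0.01, 95% interval -1.36 to 1.34). For both genes the WT arrays lay between the Ezh2-null arrays. Without Ezh2-null array 1, 12 of the 45 fell and the median was -0.96. Without array 2 none was called and the median was 0.09.

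No other gene passed the test in undifferentiated cells. Ccna2 stood at 13.94 and 12.84 in Ezh2-null undifferentiated cells, against 13.32 and 13.29 in WT undifferentiated cells (0.08). Cdc20 stood at 10.08 and 8.62, against 9.75 and 8.90, and Bub1 at 12.41 and 10.47, against 12.26 and 11.79. For each of the 3 the WT arrays lay between the Ezh2-null arrays. Aurkb stood at 10.27 and 8.89, against 10.53 and 10.11 (-0.74, adjusted p = 0.502), and Birc5 at 6.32 and 5.61, against 6.50 and 6.28. Kif11 stood at 14.49 and 13.70, against 14.56 and 14.40, and Kif20a at 12.17 and 10.59, against 12.07 and 11.32. The groups overlapped for each of these 4. Prc1 stood at 12.12 and 10.96, against 12.06 and 11.95. Ncapg stood at 10.35 and 9.75, against 10.55 and 10.52. Top2a stood at 14.31 and 13.50, against 14.50 and 14.19 (-0.44). Of these 3, Ncapg alone had both Ezh2-null arrays below both WT arrays.

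The effect of the genotype label differed between the stages. The interaction (the labelled-null minus WT difference in neutrophils, minus that difference in undifferentiated cells) was above 0 for all 45 genes and passed the test for 32, against a background of 2.77% of all clusters and 6.73% of the brighter ones. Its median was 2.46 log2 units, against -0.02 over all clusters. By role, 4 of 6 engine, 5 of 7 checkpoint, 4 of 7 kinetochore, 3 of 4 passenger, 8 of 10 spindle, 2 of 4 cytokinesis and 6 of 7 chromosome genes passed.

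Ccna2 had the largest interaction (3.57, SE 0.568, adjusted p = 0.00841), followed closely by Ncapd2 (3.55, SE 0.559) and Top2a (3.54, SE 0.47, adjusted p = 0.00365). Kif11 (3.46, SE 0.421) and Mki67 (3.37, SE 0.485) passed as well. Cenpa had the smallest (0.68, SE 0.352, adjusted p = 0.43). Across the arrays left out 1 at a time, between 17 and 43 of the 45 passed, the lowest number without labelled-null neutrophil array 2.

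Within the Ezh2-null line, the mitotic genes showed no common fall on differentiation. Neutrophils labelled Ezh2-null minus Ezh2-null undifferentiated cells gave a median of -0.20 log2 units, with 16 genes above 0 and 29 below. Rises passed the test in 2 cases and falls in 4, against backgrounds of 11.7% and 10.7% of all clusters (23.4% and 28.0% of the brighter ones). Ezh2-null array 1 or 2 of the undifferentiated cells decided much of this: 7 rose and 1 fell without array 1 (median 0.32), and 1 rose and 19 fell without array 2 (median -0.75).

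Mki67 rose, at 17.08 and 17.29 in neutrophils labelled Ezh2-null, against 15.87 and 15.42 in Ezh2-null undifferentiated cells (1.53, SE 0.343, adjusted p = 0.0109). Pttg1 rose as well, at 7.34 and 7.45 against 6.36 and 5.53 (1.45, SE 0.245, adjusted p = 0.00246). Neither pair of groups overlapped. Ect2 had the largest fall, at 10.60 and 10.77 against 13.81 and 12.62 (-2.53, SE 0.381, adjusted p = 0.00128). Cdk1 (-1.17, adjusted p = 0.0447), Ttk, the checkpoint kinase MPS1 (-1.0, adjusted p = 0.0481), and Racgap1 (-1.10, adjusted p = 0.0485) fell too. The calls of Cdk1, Ttk and Racgap1 ended in at least 12 of 20 alternative settings, in which Ect2 was the one fall left, and that of Mki67 ended without Ezh2-null undifferentiated array 2 (1.31) or labelled-null neutrophil array 2 (1.43).

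GSK343 gave no call among the mitotic genes. None of the 45 rose or fell, against a background of 0.00152% of all clusters and 0.00639% of the brighter ones rising and none falling in limma's fit. All 45 differences lay above 0 (50.1% of all clusters and 58.4% of the brighter ones did), with a median of 0.68 log2 units, against 0.00 over all clusters. Both GSK343 arrays lay above both vehicle arrays for 43 genes, against 19.5% of all clusters and 33.1% of the brighter ones. The genes also shifted together between replicate arrays, so these counts are not separate observations. Median replicate gaps were -0.21 with GSK343, -0.14 with vehicle and 1.10 in Ezh2-null undifferentiated cells. At an unadjusted p under 0.05, 9 were higher, against 3.6% of all clusters and 9.53% of the brighter ones. No alternative setting of limma called any of the 45, and no other tool was run.

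Ccna2 had the largest difference, at 12.32 and 12.04 in GSK343 neutrophils, against 10.95 and 11.15 in vehicle neutrophils (1.13, SE 0.401, adjusted p = 0.698, 95% interval 0.22 to 2.04). Plk1 stood at 10.65 and 10.67, against 9.50 and 9.58 (1.12, 95% interval -0.22 to 2.47). Cdk1 stood at 8.51 and 8.24, against 7.81 and 7.76 (0.59, 95% interval -0.23 to 1.40). In each case the GSK343 arrays were the higher pair without passing the test. Cks2 had the smallest difference, at 7.54 and 7.84 against 7.56 and 7.74, with groups that overlapped (0.04, 95% interval -0.38 to 0.46).

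Checkpoint, kinetochore and passenger genes gave medians of 0.73, 0.68 and 0.45, with no gene called. Cdc20 stood at 6.85 and 6.91 in GSK343 neutrophils, against 6.28 and 6.02 in vehicle neutrophils (0.73, 95% interval -0.28 to 1.74). Bub1 stood at 10.30 and 10.10, against 9.32 and 9.58 (0.75, 95% interval -0.46 to 1.96). Cenpa, with the lowest unadjusted p of the 45, stood at 8.19 and 7.95, against 7.32 and 7.18 (0.82, unadjusted p = 0.00912, adjusted p = 0.592). Their GSK343 arrays all lay above their vehicle arrays. Ndc80 stood at 10.20 and 10.25, against 9.41 and 9.62 (0.71, adjusted p = 0.705). Aurkb stood at 7.56 and 7.82, against 7.06 and 6.94 (0.69, adjusted p = 0.921). Birc5 stood at 6.25 and 5.79, against 5.46 and 5.63 (0.48, adjusted p = 0.929). Pttg1 stood at 5.50 and 5.82, against 5.48 and 5.28 (0.27, adjusted p = 1.0).

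Spindle and chromosome genes gave medians of 0.71 and 0.60. Kif11 stood at 13.27 and 13.31 in GSK343 neutrophils, against 12.31 and 12.51 in vehicle neutrophils (0.88, adjusted p = 0.662). Top2a stood at 13.09 and 13.06, against 12.13 and 12.37 (0.83, adjusted p = 0.779). Mki67 stood at 16.28 and 16.69, against 15.72 and 16.10 (0.57, adjusted p = 0.933). The groups lay closest for Mki67. Smc4, a condensin ATPase, and Cks2 were the 2 genes whose groups overlapped. Kif20a stood at 9.96 and 10.31, against 9.21 and 9.27 (0.90, adjusted p = 0.93). Prc1 stood at 11.05 and 11.45, against 10.54 and 10.60 (0.67, adjusted p = 0.906). Ncapg stood at 9.16 and 9.10, against 8.34 and 8.39 (0.76, adjusted p = 0.656). The GSK343 arrays of these 3 genes were the higher pair.

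Markers of cell stage moved in the same arrays. All 12 neutrophil markers were lower with GSK343 (median -0.28) and all 10 progenitor markers higher (median 0.61), none of them called. Of all clusters 50.1% lay above 0, and of the brighter ones 58.4%. The summed log2 signals were 21.48 to 21.91 against 22.02 to 22.04 for neutrophil markers and 12.35 to 12.38 against 11.27 to 11.37 for progenitor markers. Of 13 mast cell and basophil markers 1 rose, the only 1 of 65956 clusters that was called. Kit is in both the mast cell and the progenitor list. The summed signal of the mast cell markers was 15.09 to 15.14 against 13.61 to 13.66. Of 10 erythroid markers 8 were at background in both groups. Their part in the differences was not tested.

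**Figure D4:**
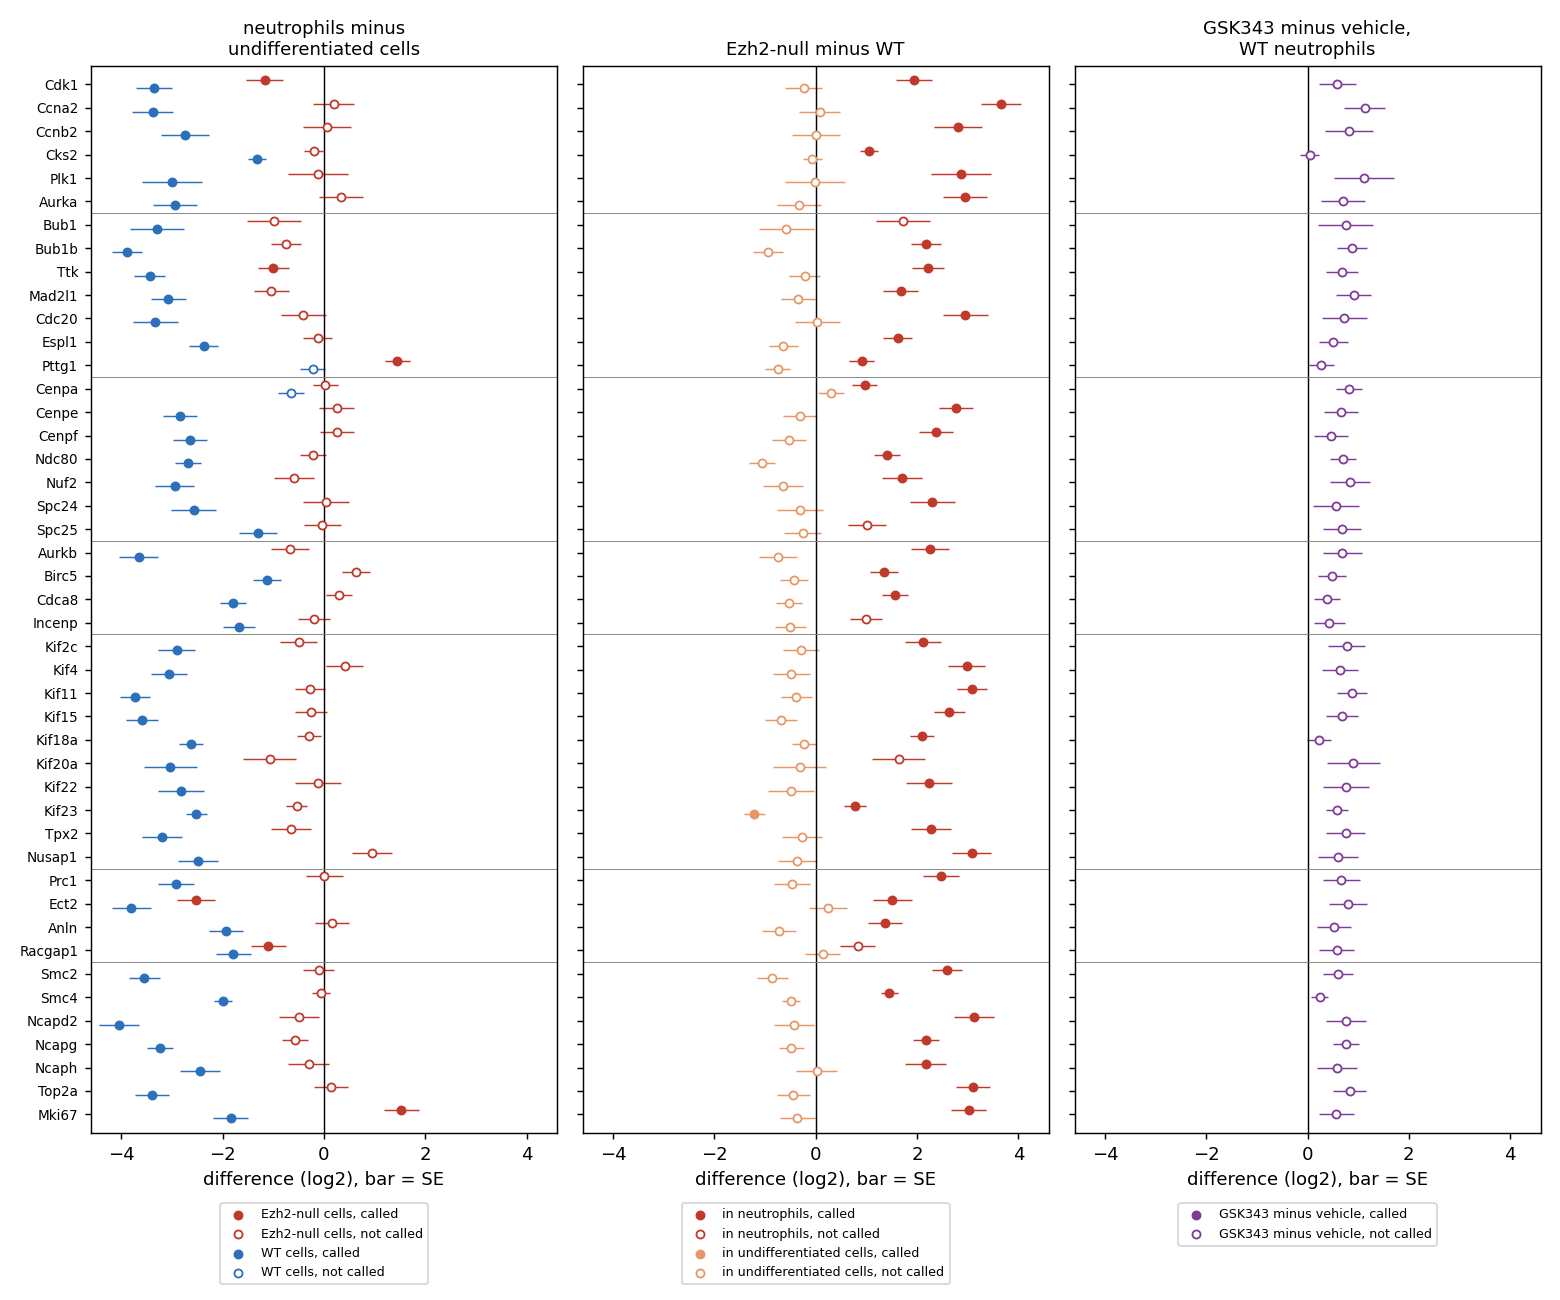
Log2 differences (bars = SE from limma) of the 45 genes, by role: neutrophils minus undifferentiated cells in each genotype (left), Ezh2-null minus WT at each stage (middle) and GSK343 minus vehicle (right); filled points passed the test. WT differentiation gives filled points left of 0 for 43 genes, the label contrast in neutrophils filled points right of 0 for 40, and GSK343 open points right of 0 for all 45.

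The label contrast in neutrophils and the GSK343 contrast use different arrays, and their difference was tested directly. All 45 genes gave a larger difference for the label than for the inhibitor (median 1.47), and 10 passed the test, against a background of 1.97% of all clusters and 3.28% of the brighter ones. These were Ccna2 (2.53, SE 0.568, adjusted p = 0.0482), Mki67 (2.44), Top2a (2.27), Kif11 (2.20), Cenpe (2.12), Kif4 (2.34), Kif18a (1.87), Nusap1 (2.48), Smc2 (1.99) and Smc4 (1.20). Kif4 and Kif18a are motors that act on chromosome arms and spindle length. Cenpa had the smallest, at 0.15 (95% interval -0.65 to 0.95). Between 0 and 25 genes passed when 1 array was left out, so the names depend on single arrays. The contrasts also differ in array set. Since the Ezh2 transcript did not settle the label in neutrophils, this comparison rests on that label. With the 2 neutrophil groups turned round, the label contrast would be below 0 and the GSK343 contrast still above it. The same 8 of 10 erythroid markers were at background in WT neutrophils and in the vehicle neutrophils of the drug arrays. In neutrophils labelled Ezh2-null 0 were. Whether these markers settle the label was not tested.

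Other genes of mitosis, in 7 lists of 144 measured genes, were counted in the same way. In WT differentiation 12 rose and 109 fell (median -1.86), against 13.0% and 12.2% of all clusters and 27.1% and 33.3% of the brighter ones. In neutrophils labelled Ezh2-null 77 rose and 2 fell (median 0.97), against 6.75% and 5.06% of all clusters and 16.7% and 12.2% of the brighter ones. None was called with GSK343 (median 0.32). In undifferentiated cells 2 fell and none rose (median -0.19), a share near the 1.34% of all clusters that fell. The shares were not tested against those of the 45.

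By list, the counts in neutrophils labelled Ezh2-null are to be read against the 6.75% of all clusters, and 16.7% of the brighter ones, that rose. Other kinetochore genes rose in 17 of 30 cases. Knl1, the scaffold that recruits checkpoint proteins, stood at 12.13 and 12.55, against 8.94 and 9.71 in WT neutrophils (3.02, SE 0.282, adjusted p = 0.000193), and Bub3, a checkpoint adaptor, differed by 0.74 (adjusted p = 0.0157). Other spindle and cytokinesis genes rose in 22 of 37 cases and fell in 1. Aspm, a spindle pole protein, stood at 10.10 and 10.87, against 6.71 and 7.56 (3.35, SE 0.326, adjusted p = 0.000238). The gene that fell was Cep55, which recruits the abscission machinery to the midbody, at 5.84 and 5.67 against 7.11 and 7.75 (-1.68, SE 0.332, adjusted p = 0.0103). Cep55 also fell in WT differentiation (-2.93, adjusted p = 0.000155), where its undifferentiated arrays stood at 10.50 and 10.22.

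Further kinases and phosphatases rose in 13 of 23 cases and fell in 1. Cdc25b, a phosphatase that activates CDK1, stood at 10.19 and 10.47 in neutrophils labelled Ezh2-null, against 6.82 and 7.26 in WT neutrophils (3.29, SE 0.267, adjusted p = 8.91e-05). Those levels were above the 8.38 and 7.65 of WT undifferentiated cells, which its labelled-null arrays did not overlap. Nek9, a NIMA-related kinase, fell by 0.91 (adjusted p = 0.0117). All 3 condensin II genes rose, from Ncaph2 (0.97, adjusted p = 0.0336) to Ncapd3 (2.16, adjusted p = 0.000153). Of 14 cohesin genes 7 rose (median 0.56), from Wapl, the cohesin release factor (0.70, adjusted p = 0.0173), to Esco2, the cohesin acetyltransferase of S phase (2.16, adjusted p = 0.00576).

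The anaphase-promoting complex and its partners rose in 8 of 20 cases, with a median of 0.31. Ube2c, its ubiquitin-conjugating enzyme, stood at 12.04 and 12.68 in neutrophils labelled Ezh2-null, against 9.00 and 9.98 in WT neutrophils (2.87, SE 0.453, adjusted p = 0.0033). Cdc27, a core subunit, differed by 0.60 (adjusted p = 0.0367). Fzr1, which encodes the activator CDH1 that keeps the complex active after mitosis, was not called (7.60 and 7.60 against 7.39 and 7.37, adjusted p = 0.774). Regulators of late cell cycle genes rose in 7 of 17 cases (median 0.63). Mybl2, which encodes B-MYB, stood at 8.15 and 7.95, against 5.43 and 5.66, and its WT undifferentiated arrays at 10.76 and 10.16. Mybl2 rose by 2.5 log2 units (SE 0.416, adjusted p = 0.00442), with 1 of the WT neutrophil arrays below background, and GSK343 left it at 5.82 and 5.99 against 5.80 and 5.69 (0.16). Lin9, a MuvB core subunit, rose by 0.63 (adjusted p = 0.0345), and Tfdp2, an E2F partner, by 2.80 (adjusted p = 0.000286). Foxm1 had no row of its own and was not analysed here.

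Near-start CHR letters were found for 31 of the 120 of these other genes that had a window (25.8%), against 65.8% of the 38 mitosis and spindle genes with a window and 5.72% of all genes.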

How the data were processed

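Per the labels, 250 ng of RNA went onto each array, an Affymetrix Mouse Transcriptome Array 1.0. The deposited table holds log2 signals, judged from the range of its values, with 1 value per cluster and array. Expression Console and Transcriptome Analysis Console (both Affymetrix) are the tools in the submitters' processing notes; neither a version nor a summarisation method or genome build is given in the sources used here. The table has 72688 entries, from which 6732 controls were removed. Symbols came from the platform annotation, updated by Entrez ID (22818 clusters matched, 827 symbols changed). Of the clusters, 30604 had 1 symbol, 2146 several and 33206 none. One limma model (version 3.58.1, run in R 4.3.3 through lmFit and eBayes) gave the 6 groups a mean each over all 12 arrays, with 6 residual and 3.06 prior degrees of freedom, and Benjamini-Hochberg adjustment over all 65956 clusters and a threshold of 0.05. The fit was tested on simulated data in which each cluster varied independently. Shifts shared by many genes of an array, as seen here, were not simulated. The number of arrays limits the precision.

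The members and lists were chosen with earlier results of these data known. Values on the arrays compared are given, in each 2-group comparison within an array set, chiefly for Cdk1, Plk1, Cdc20, Bub1, Pttg1, Cenpa, Ndc80, Aurkb, Birc5, Kif11, Kif20a, Prc1, Ncapg, Mki67, Top2a (Ccnb1 had no row) and the members with the largest and smallest difference of each comparison; for the other lists, the called genes with the largest and smallest difference and Mybl2, Lin9, Fzr1 and Ube2c. Other members are named as examples.

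The replicate numbers of different groups did not pair the arrays (correlations of deviations between -0.25 and 0.19), so no block was used. Alternatives were the compared arrays alone, array sets fitted apart, quantile normalization, median centring, dim clusters left out, a replicate block, an intensity trend with and without robust fitting, another background, and each array left out in turn.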

Additional observations from a re-analysis of the deposited data

Results flagged for a closer look

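The effect of the genotype label differed between neutrophils and undifferentiated cells, by limma's interaction term, for 32 of the 45 mitosis and spindle genes. The interactions were 3.57 for Ccna2, 3.55 for Ncapd2, 3.54 for Top2a, 3.46 for Kif11, 3.37 for Mki67 and 3.0 for Aurkb (log2). They were 2.93 for Prc1, 2.92 for Cdc20, 2.66 for Ncapg, 2.46 for Ndc80 and 2.18 for Cdk1. The smallest of those listed were 1.98 for Kif23, 1.77 for Birc5, 1.67 for Pttg1 and 1.11 for Cks2. Kif23 was the one gene that fell in Ezh2-null undifferentiated cells and also had the smallest difference in neutrophils. Of these 15 interactions, 8 passed the test in all 20 alternative settings.

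The label contrast in neutrophils differed from the GSK343 contrast for 10 of the 45 genes, among them Ccna2 (2.53), Mki67 (2.44), Top2a (2.27) and Kif11 (2.20). None of these 4 passed in all alternative settings.

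No group had enough arrays for a test of single arrays that stand apart.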

How the results depend on the processing

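With 1 array left out in turn, the number of the 45 genes called ranged from 23 to 45 for the label contrast in neutrophils, 0 to 12 for genotype in undifferentiated cells, 0 to 0 for GSK343, 41 to 44 for WT differentiation, 2 to 20 for differentiation of the Ezh2-null line, 17 to 43 for the interaction and 0 to 25 for label against GSK343. With the compared arrays alone, 0 genes were called for genotype in undifferentiated cells (1 in the fit of all arrays), 2 for differentiation of the Ezh2-null line (6), 17 for the interaction (32) and 23 for label against GSK343 (10). With the array sets fitted apart these were 0, 3 and 17, the 3 being 2 rises and 1 fall, so the balance turned. Leaving out dim clusters gave 2 for genotype in undifferentiated cells. Median centring gave 6 for label against GSK343, an intensity trend 4, and a robust trend 5. With the replicate block, 3 were called in the Ezh2-null line (2 rises, 1 fall) and 4 for label against GSK343; the numbers mark no shared origin, and the other counts stayed within 1.5 times. The smaller fits have fewer residual degrees of freedom; the cause of the other changes was not tested. Of the named calls, 10 of 18 held in every setting for the label contrast in neutrophils and 17 of 18 for WT differentiation. With the negative control median as background, 4 genes (Cdc20, Espl1, Birc5 and Kif18a) have only a bound on their fold in those contrasts. In neutrophils the bounds are 5.49, 2.53, 1.08 and 3.26, and in WT differentiation 7.15, 4.27 and 4.68 for Cdc20, Espl1 and Kif18a, with no fold left for Birc5. A group reduced to 1 array is assumed to vary like the other groups. Each gene had 1 row, so another row could not be tried.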
